A study of Mus musculus with 24 samples.

Results

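Regulatory T cells are CD4+ T cells that restrain other immune cells, and 6 genes by which they are recognised were read here in donor T cells before and after an allogeneic transplant. The genes were given as a list (Foxp3, Ikzf2, Ikzf4, Nrp1, Lrrc32 and Gpr83), drawn up with earlier results of these data known, and they are 6 of the 35855 genes measured. The study compared T cells of wild type (WT) mice with those of Cat-Tg mice, which carry a transgene for a human β-catenin that lacks its N-terminal part, and β-catenin is the coactivator at the end of the canonical Wnt pathway. The transgene was made in FVB mice and crossed onto C57BL/6, and which founder line gave the donors is not stated. Donors were on the C57BL/6 background, 8 to 12 weeks old, and matched for age and sex. Pre-tx libraries came from T cells sorted from fresh donor spleens. Post-tx libraries came from donor T cells sorted by the H-2Kb donor marker from the spleens of lethally irradiated BALB/c recipients at day 7, and these recipients had also received T cell-depleted bone marrow of WT mice. CD4+ and CD8+ cells were sorted separately, which gave 8 groups of 3 libraries: Cat-Tg and WT, CD4 and CD8, pre-tx and post-tx. The CD4 and CD8 cells of a time point were sorted from the same sets of mice, but the labels do not tie a CD4 library to a CD8 library.

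Foxp3 encodes the transcription factor that specifies regulatory T cells, and its loss in mice or people leads to fatal autoimmunity. Helios (Ikzf2) and Eos (Ikzf4) are Ikaros family zinc finger factors, of which Helios helps keep the regulatory state stable and Eos works with Foxp3 as a corepressor. Nrp1 is a surface receptor for semaphorins and VEGF that is high on regulatory T cells made in the thymus. Lrrc32 encodes GARP, which holds latent TGF-β on the surface of activated regulatory T cells. Gpr83 is a G protein-coupled receptor whose RNA is enriched in regulatory T cells. In mice, activated T cells that are not regulatory can also express Nrp1 and Ikzf2, and in bulk RNA fewer cells of a type and less RNA per cell cannot be told apart.

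On GRCm38 with the GENCODE M21 annotation, Foxp3 lies on the plus strand of chromosome X at 7573644-7595245. Nrp1 is on chromosome 8 at 128358604-128503363 (plus strand), and Gpr83 is on chromosome 9 at 14860210-14870789 (plus strand). Lrrc32 is on chromosome 7 at 98489283-98502181 (plus strand), Ikzf2 on chromosome 1 at 69531214-69687245 (minus strand), and Ikzf4 on chromosome 10 at 128630843-128645991 (minus strand). TCF/LEF factors, the DNA-binding partners of β-catenin, recognise a short motif, which was searched as CTTTGA or CTTTGT on either strand (TCAAAG and ACAAAG on the other). The RefSeq promoter table (GRCm38.p6) held 3 of the 6 genes, with 4 start sites, and not Ikzf2, Ikzf4 or Lrrc32. The 250 bases before the start of Foxp3 and Gpr83 are shown because these were the 2 genes called higher in Cat-Tg than in WT CD4 cells at both times (the pre-tx call of Gpr83 lay at the threshold), with the motif in capitals. Both Foxp3 windows are given, at chrX:7579426-7579675 and chrX:7580233-7580482, and the Gpr83 window is chr9:14859960-14860209, each on the plus strand and read 5′ to 3′.
Foxp3, first start: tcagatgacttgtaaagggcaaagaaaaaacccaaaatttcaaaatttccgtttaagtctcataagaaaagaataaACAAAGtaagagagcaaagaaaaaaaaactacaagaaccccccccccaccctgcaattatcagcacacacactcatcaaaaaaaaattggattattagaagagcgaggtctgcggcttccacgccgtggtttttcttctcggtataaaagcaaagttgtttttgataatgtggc
Foxp3, second start: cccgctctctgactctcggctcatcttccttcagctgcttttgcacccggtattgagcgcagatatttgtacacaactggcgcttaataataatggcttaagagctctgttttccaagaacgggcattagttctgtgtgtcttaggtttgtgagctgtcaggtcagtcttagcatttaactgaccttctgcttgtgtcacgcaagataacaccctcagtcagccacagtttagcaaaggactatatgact
Gpr83: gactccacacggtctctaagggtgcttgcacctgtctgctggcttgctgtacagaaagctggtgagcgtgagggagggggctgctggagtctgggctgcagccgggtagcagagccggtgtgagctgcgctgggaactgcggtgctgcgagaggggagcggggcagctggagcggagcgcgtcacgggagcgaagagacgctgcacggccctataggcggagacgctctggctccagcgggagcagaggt
The first Foxp3 window held 1 match (ACAAAG), 174 bases before the start, and had a GC content of 37.6%. The second Foxp3 window, the Gpr83 window and the Nrp1 window (chr8:128358823-128359072) held none, with GC contents of 46.0%, 66.8% and 64.4%. Of all 32851 windows of this length in the table, 9075 (27.6%) held at least 1 match. These counts describe the letters of the windows, and binding was not measured.

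The libraries held 11135713 to 50519825 estimated counts (median 27062440.5), so that 3 counts were worth 0.0594 to 0.269 CPM. Levels below are CPM, counts divided by library size after TMM scaling, unless TPM is named. The 6 libraries labelled WT pre-tx stood apart from their labels. Cd4 was 59.4, 145 and 63.4 CPM in WT CD4 pre-tx and 85.9, 85.0 and 111 CPM in WT CD8 pre-tx, while Cd8a was 112 to 160 CPM and 84.9 to 155 CPM in the same groups, so neither gene separated them. In Cat-Tg pre-tx libraries Cd4 was 189 to 335 CPM in CD4 and at most 3.62 CPM in CD8 cells, and Cd8a was 3.69 to 8.55 CPM in CD4 and 490 to 887 CPM in CD8 cells. The summed level of 12 B cell markers was 5950 to 8890 CPM in WT CD4 pre-tx and 472 to 686 CPM in Cat-Tg CD4 pre-tx. The summed level of 12 T cell markers was 2310 to 3640 CPM and 6950 to 7890 CPM in these groups. The same WT libraries also held more RNA of other cells than the Cat-Tg CD4 pre-tx libraries, with macrophage and monocyte markers at 1950 to 3480 against 892 to 1350 CPM, red cell markers at 2160 to 6710 against 355 to 570 CPM, dendritic cell markers at 104 to 175 against 47.7 to 82.8 CPM and platelet markers at 34.1 to 41.1 against 12.1 to 17.9 CPM. Comparisons that use WT pre-tx libraries, between genotypes or over time, therefore set libraries of unlike cell content side by side, and the CD4 comparisons are also given per T cell transcript. All Cat-Tg libraries carry one series of sample codes and all WT libraries another, so library series and genotype cannot be told apart. Mouse Ctnnb1 differed by 0.19 on the log2 scale between Cat-Tg and WT in CD4 pre-tx (SE 0.289, adjusted p = 0.733, edgeR) and by -0.19 in CD4 post-tx (SE 0.288, adjusted p = 0.763). In CD8 cells it differed by -0.12 pre-tx (SE 0.668, adjusted p = 0.95) and by 1.28 post-tx (SE 0.68, adjusted p = 0.317). The RNA of the human transgene itself was not analysed here, and whether its reads were counted on mouse Ctnnb1 was not tested.

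**Figure D1:**
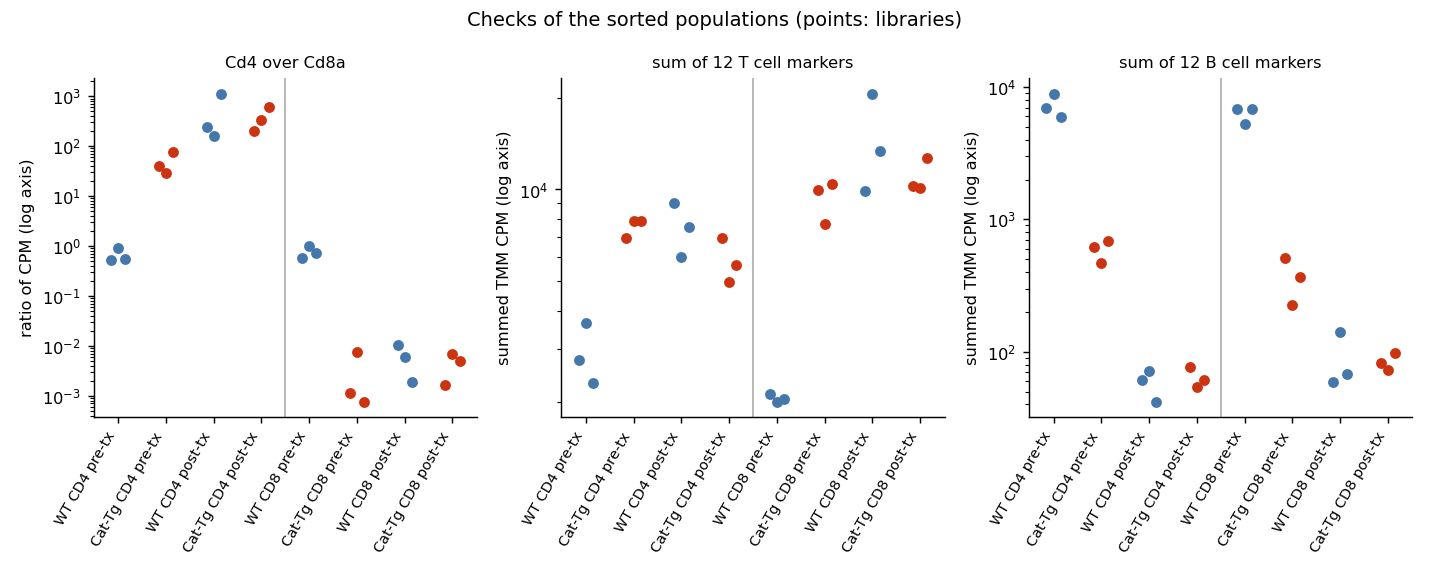
Ratio of Cd4 to Cd8a CPM (left), summed CPM of 12 T cell markers (middle) and of 12 B cell markers (right), all on log axes, in the 24 libraries, 1 point each, with WT in blue and Cat-Tg in red. The ratio puts the WT CD4 pre-tx and WT CD8 pre-tx libraries together while the other groups separate by label, and B cell markers stand at 5950 to 8890 CPM in WT CD4 pre-tx.

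Foxp3 was highest in Cat-Tg CD4 cells at both times. In CD4 pre-tx the 3 Cat-Tg libraries had 70.7, 78.4 and 76.6 CPM (75.2 ± 4.07, SD, n = 3) and the 3 libraries labelled WT had 9.44, 24.6 and 17.8 CPM (17.3 ± 7.6). In CD4 post-tx the Cat-Tg libraries had 78.1, 42.8 and 40.3 CPM (53.7 ± 21.1) and the WT libraries 17.3, 20.7 and 10.7 CPM (16.2 ± 5.08). Every Cat-Tg CD4 library was above every WT CD4 library, with 40.3 CPM in the lowest of the former and 24.6 CPM in the highest of the latter. Within the Cat-Tg post-tx group, replicate 1 stood at the pre-tx level and the other 2 lay lower.

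Among the Ikaros family members, Ikzf2 changed its order between the times. In CD4 pre-tx it was 30.3, 52.7 and 33.7 CPM in Cat-Tg libraries (38.9 ± 12.1) and 4.53, 4.15 and 6.39 CPM in WT libraries (5.02 ± 1.2). In CD4 post-tx it was 8.99, 9.91 and 10.3 CPM in Cat-Tg libraries (9.73 ± 0.663) and 17.1, 22.1 and 15.7 CPM in WT libraries (18.3 ± 3.35). The groups did not overlap at either time, with Cat-Tg above WT before the transplant and below WT after it. Ikzf4 was low throughout and varied within groups. It was 7.32, 10.3 and 10.6 CPM in Cat-Tg and 0.0482, 3.57 and 2.09 CPM in WT CD4 pre-tx libraries, which did not overlap. In CD4 post-tx it was 23.4, 2.69 and 12.6 CPM in Cat-Tg and 3.27, 1.72 and 6.95 CPM in WT libraries, which overlapped because Cat-Tg replicate 2 lay below 2 of the WT libraries.

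Of the surface proteins, Nrp1 differed between genotypes before the transplant and lay at one level after it. In CD4 pre-tx it was 32.0, 38.8 and 39.9 CPM in Cat-Tg libraries (36.9 ± 4.29) and 3.9, 13.9 and 7.23 CPM in WT libraries (8.35 ± 5.1). In CD4 post-tx it was 84.7, 128 and 115 CPM in Cat-Tg libraries (109 ± 22.2) and 105, 122 and 138 CPM in WT libraries (121 ± 16.5). All 6 post-tx libraries were above all 6 pre-tx libraries, and the 2 genotypes overlapped after the transplant. Lrrc32 spread widely among WT libraries. It was 28.9, 16.1 and 24 CPM in Cat-Tg and 0.53, 15.5 and 16.1 CPM in WT CD4 pre-tx libraries, where the highest WT and the lowest Cat-Tg library were level after rounding and the groups did not overlap before it. In CD4 post-tx it was 14.4, 11.5 and 12.4 CPM in Cat-Tg and 1.11, 9.35 and 2.74 CPM in WT libraries, again without overlap.

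Gpr83 was lower after the transplant in both genotypes. In CD4 pre-tx it was 31.7, 11.7 and 40.5 CPM in Cat-Tg libraries (28 ± 14.8) and 9.82, 6.74 and 13.0 CPM in WT libraries (9.84 ± 3.11), with Cat-Tg replicate 2 inside the WT range. In CD4 post-tx it was 9.46, 3.16 and 9.82 CPM in Cat-Tg libraries (7.48 ± 3.75) and 0.593, 0.757 and 1.12 CPM in WT libraries (0.822 ± 0.268). The post-tx groups did not overlap.

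**Figure D2:**
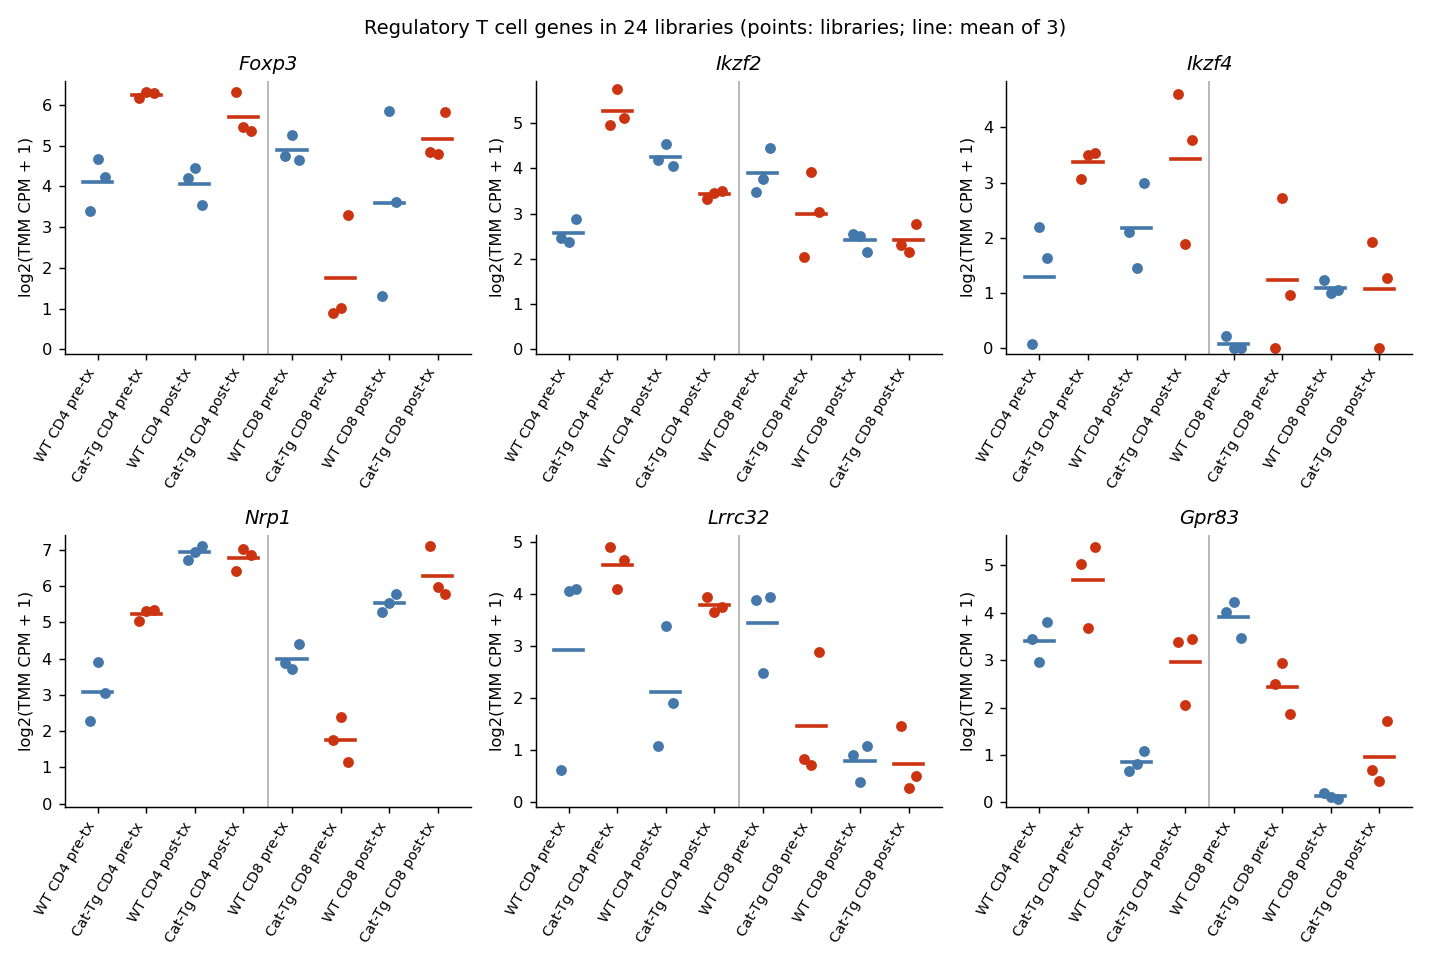
Level of each of the 6 genes as log2(TMM CPM + 1) in all 8 groups, CD4 groups first, 1 point per library and a line at the mean of 3, with WT in blue and Cat-Tg in red. In CPM, Foxp3 stands at 40.3 to 78.4 in Cat-Tg CD4 and at 9.44 to 24.6 in WT CD4 libraries, and Nrp1 at 84.7 to 138 in all CD4 post-tx libraries.

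The first comparison asks whether Cat-Tg and WT CD4 cells differed before the transplant. Foxp3, Ikzf2, Nrp1 and Gpr83 were called higher in Cat-Tg, 4 of the 6 genes, beside 13.3% of all 17237 genes tested called higher and 7.16% called lower, with the threshold set at an adjusted p of 0.05. The difference was 2.28 on the log2 scale for Foxp3 (SE 0.371, 4.84-fold, adjusted p = 0.000558, edgeR's quasi-likelihood test with Benjamini-Hochberg adjustment), 3.06 for Ikzf2 (SE 0.386, 8.35-fold, adjusted p = 8.76e-05) and 2.32 for Nrp1 (SE 0.347, 4.99-fold, adjusted p = 0.000307). The Gpr83 difference of 1.58 (SE 0.536, adjusted p = 0.047) lay at the threshold, and the call was lost when any library but Cat-Tg replicate 2 was left out (adjusted p = 0.0871 to 0.195) and under other size factors and filters (adjusted p = 0.0522 to 0.0853). Ikzf4 (2.49, SE 0.924, adjusted p = 0.0686) and Lrrc32 (1.25, SE 0.829, adjusted p = 0.346) were not called. The median difference was 2.3 over the 6 genes and 0.03 over all genes.

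This comparison depended on what the level was taken relative to. When the libraries were scaled to the T cell markers, the median of all genes moved from 0.03 to -1.52 and 1 of the 6 genes, Ikzf2, was called (1.47, adjusted p = 0.015). Foxp3 was then 0.74 higher (adjusted p = 0.119), Nrp1 0.8 (adjusted p = 0.0841), Gpr83 0.02 (adjusted p = 0.976) and Lrrc32 -0.3 (adjusted p = 0.782). Relative to that median, Foxp3 stood at 2.26, Ikzf2 at 2.99 and Nrp1 at 2.32. Scaling moves all genes of a library alike, so the closeness of these values to those under TMM scaling was built in and is no check. With all 24 libraries in one fit, the Foxp3 difference was 2.12 with an adjusted p of 0.118. How much of these differences came from the unequal T cell content of the libraries was not tested.

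The ratio to T cell transcripts was also read in each library. Foxp3 per 1000 CPM of the summed Cd3d, Cd3e and Cd3g was 30.8, 24.1 and 31.0 for the Cat-Tg libraries before transplant and 13.8, 35 and 35.3 in the WT libraries (28.6 ± 3.92 against 28 ± 12.3, SD, n = 3 each, two-sided exact permutation test, p = 1). Ikzf2 per Cd3 was 13.2, 16.2 and 13.6 against 6.64, 5.89 and 12.7, the one gene of the 6 without overlap (14.3 ± 1.63 against 8.41 ± 3.73, exact permutation p = 0.1, the smallest that 3 against 3 allows). Nrp1 per Cd3 overlapped (14.0 against 13.3, exact permutation p = 0.9). Per 1000 CPM of Cd4, none of the 6 genes was free of overlap before the transplant, against 5 of 6 without a denominator, with Foxp3 at 298 ± 105 in Cat-Tg and 203 ± 67.3 in WT (exact permutation p = 0.3). The share of all genes without overlap was not counted under any denominator.

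**Figure D3:**
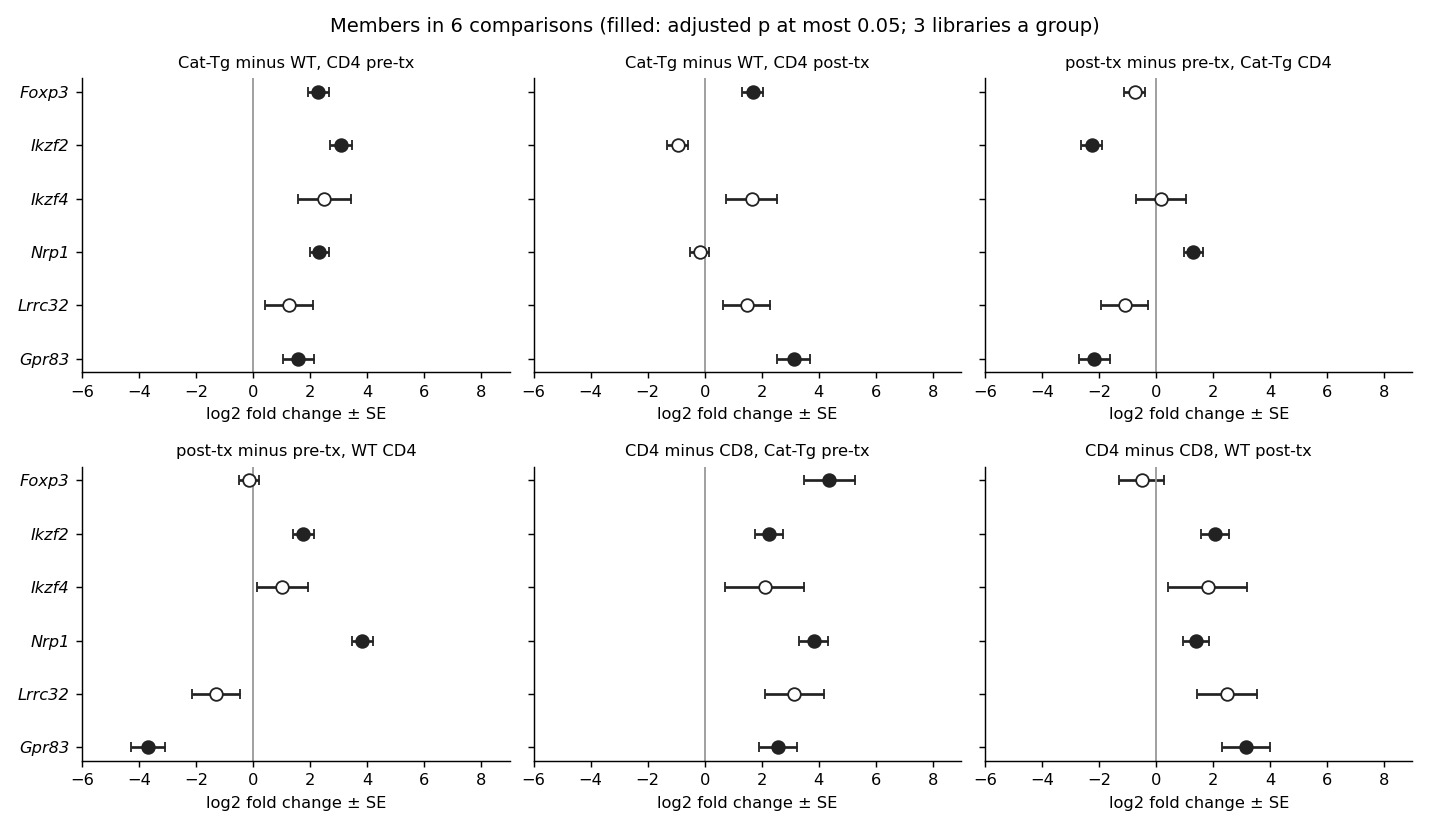
Log2 fold changes of the 6 genes with bars of 1 SE in 6 comparisons, 4 within CD4 cells and 2 of CD4 minus CD8, filled where the adjusted p is at most 0.05. Foxp3 and Gpr83 are filled for Cat-Tg minus WT in CD4 cells at both times, at 2.28 and 1.58 pre-tx and at 1.68 and 3.13 post-tx.

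The second comparison asks the same after the transplant, where the T cell markers of the 2 CD4 groups overlapped (4970 to 6930 CPM in Cat-Tg, 6000 to 9060 CPM in WT). Foxp3 and Gpr83 were higher in Cat-Tg, 2 of the 6 genes, beside 3.69% of all genes called higher and 6.46% called lower. Foxp3 differed by 1.68 (SE 0.364, 3.2-fold, adjusted p = 0.00866, edgeR) and Gpr83 by 3.13 (SE 0.579, 8.78-fold, adjusted p = 0.004). Neither call was lost when any of the 6 libraries was left out. Ikzf2 was -0.95 (SE 0.359, adjusted p = 0.109), Nrp1 -0.18 (SE 0.326, adjusted p = 0.796), Ikzf4 1.65 (SE 0.888, adjusted p = 0.275) and Lrrc32 1.47 (SE 0.837, adjusted p = 0.309), none of them called. Members had a median of 1.56 and all genes one of -0.19. With all 24 libraries in one fit the Foxp3 difference was 1.73 and no longer called (adjusted p = 0.265), while Gpr83 was still called.

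Per T cell transcript, the genotypes stayed apart for Foxp3 after the transplant. The denominators were themselves lower in Cat-Tg by their means, though none was called. Cd4 was 748 against 1000 CPM, Cd3d 465 against 755, Cd3g 402 against 671 and Cd3e 445 against 612 CPM, and only Cd3e overlapped. Foxp3 per 1000 CPM of Cd3 was 65.7, 33.4 and 27.5 in Cat-Tg and 7.21, 12.7 and 5.13 in WT CD4 post-tx libraries (42.2 ± 20.6 against 8.35 ± 3.93, two-sided exact permutation test, p = 0.1, the smallest possible). Gpr83 per Cd3 was 7.96, 2.47 and 6.69 against 0.247, 0.466 and 0.534, and Lrrc32 per Cd3 was 12.1, 9.01 and 8.47 against 0.463, 5.75 and 1.31. The 2 genotypes did not overlap for these 3 genes, per Cd3 and also per Cd4. Ikzf2 was lower in Cat-Tg without overlap per Cd4 (13.0 ± 0.641 against 18.7 ± 5.99) but overlapped per Cd3 (7.43 against 9.41, exact permutation p = 0.7). Markers of other cells moved with this comparison: macrophage and monocyte markers summed to 2670 to 4230 CPM in Cat-Tg and 623 to 806 CPM in WT CD4 post-tx libraries, with 9 of 10 called higher, and red cell markers to 1350 to 9190 CPM and 154 to 297 CPM, with 7 of 7 called higher. Endothelial markers summed to 59 to 79.3 CPM against 11.5 to 21 CPM, with 1 of 7 tested called higher and 1 lower. The higher one was Stab2 (61.1 against 10.2 CPM), which made up most of the sum in Cat-Tg, and the lower one Kdr (0.42 against 2.11 CPM). Dendritic cell markers summed to 113 to 187 CPM against 93.4 to 124 CPM (1 of 10 higher). Platelet markers summed to 12.2 to 16 CPM against 3.23 to 7.04 CPM (2 of 7 tested higher), with Gp1bb and Gp9 at 0 counts in WT. Their part in the differences of Lrrc32, Nrp1, Gpr83 and Foxp3 was not tested.

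**Figure D4:**
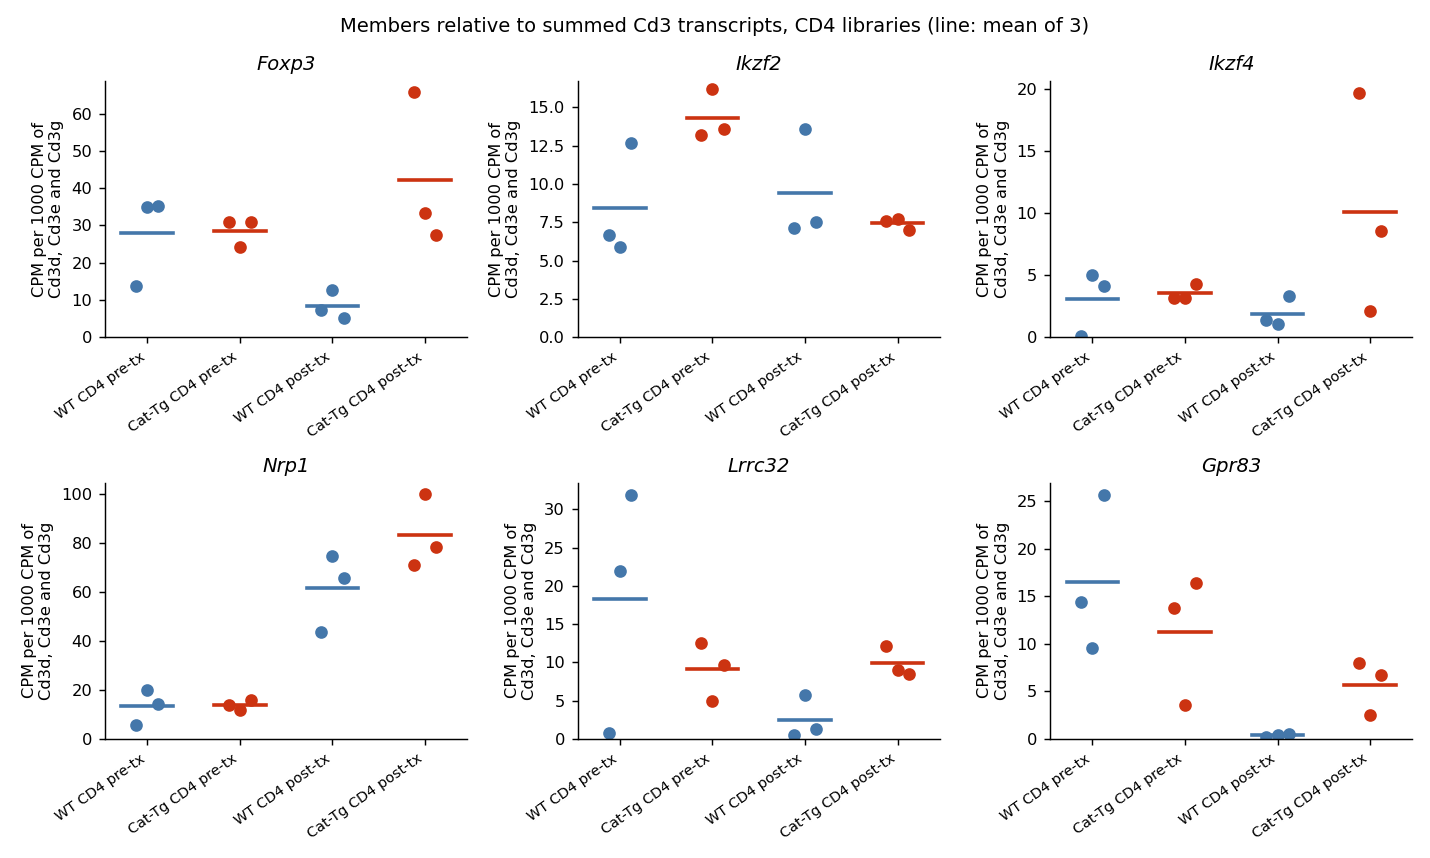
Each gene per 1000 CPM of summed Cd3d, Cd3e and Cd3g in the 12 CD4 libraries (linear axis from 0), 1 point per library and a line at the mean of 3, WT in blue and Cat-Tg in red. Foxp3 overlaps between genotypes pre-tx (13.8 to 35.3) and separates post-tx, at 27.5 to 65.7 in Cat-Tg and 5.13 to 12.7 in WT.

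Between pre-tx and post-tx, Ikzf2 moved in opposite directions in CD4 cells of the 2 genotypes, while Nrp1 rose and Gpr83 fell in both, on the TMM scale. In Cat-Tg CD4 cells Nrp1 rose by 1.31 (SE 0.332, adjusted p = 0.00559, edgeR), while Ikzf2 fell by 2.26 (SE 0.372, adjusted p = 3e-04) and Gpr83 fell by 2.16 (SE 0.547, adjusted p = 0.00563). That is 1 gene of 6 higher and 2 lower, beside 16.2% and 28.9% of all genes. Foxp3 was -0.75 (SE 0.356, adjusted p = 0.0959), and without Cat-Tg post-tx replicate 1 it was -1.09 and called (adjusted p = 0.0256). Lrrc32 (-1.1, adjusted p = 0.291) and Ikzf4 (0.18, adjusted p = 0.884) were not called.

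In WT CD4 cells Nrp1 rose by 3.82 (SE 0.368, 14.1-fold, adjusted p = 3.24e-06), Ikzf2 rose by 1.75 (SE 0.369, adjusted p = 0.00288) and Gpr83 fell by 3.7 (SE 0.592, adjusted p = 0.000354). The count was 2 genes higher and 1 lower, beside 14.7% and 9.6% of all genes. Foxp3 was -0.15 (SE 0.356, adjusted p = 0.77), Lrrc32 -1.31 (adjusted p = 0.258) and Ikzf4 1.02 (adjusted p = 0.407). These values start from the WT pre-tx libraries, and on the T cell marker scale, where the median of all genes was -1.41, Foxp3 was called lower (-1.4, adjusted p = 0.00848) and Ikzf2 was not called (0.46, adjusted p = 0.39). Per 1000 CPM of Cd4, which itself was 59.4 to 145 CPM in WT pre-tx and 862 to 1080 CPM in WT post-tx libraries, Ikzf2 in WT cells was 76.2, 28.7 and 101 pre-tx and 15.9, 25.6 and 14.7 post-tx, lower without overlap as in Cat-Tg cells (90.5, 279 and 118 against 12.3, 13.5 and 13.2). Nrp1 per Cd4 overlapped between the times in Cat-Tg cells (147 ± 55.3 pre-tx, 146 ± 29.5 post-tx) and in WT cells (91.9 ± 24.4 and 122 ± 22.7). Per Cd3 it was higher post-tx without overlap, at 11.9 to 16.1 pre-tx and 71.2 to 99.9 post-tx in Cat-Tg cells. In WT cells it was 5.72 to 19.8 and 43.6 to 74.9 per Cd3. Thus the direction of Ikzf2 in WT cells depended on the scale, while Nrp1 rose under TMM scaling and per Cd3 but overlapped per Cd4.

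The difference of the 2 genotype effects was tested as an interaction. Ikzf2 had -4.01 (SE 0.524, adjusted p = 0.00014) and Nrp1 -2.5 (SE 0.472, adjusted p = 0.00207), so that for 2 of the 6 genes the Cat-Tg minus WT difference was lower post-tx than pre-tx, beside 7.25% of all genes called higher and 14.1% called lower. For Ikzf2 the call held on the T cell marker scale (-2.04, adjusted p = 0.0165), and for Nrp1 it did not (-0.58, adjusted p = 0.419). Foxp3 had -0.6 (SE 0.502, adjusted p = 0.395), so a change of the Foxp3 difference with the transplant was not shown, and it was 0.13 without WT pre-tx replicate 1. Gpr83 had 1.55 (SE 0.756, adjusted p = 0.149), Ikzf4 -0.84 (adjusted p = 0.636) and Lrrc32 0.22 (adjusted p = 0.905).

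Foxp3 values carry a limit of the annotation. Its exons share 590 bases with Ccdc22, 266 with Ppp1r3f and 373 with Gm36995, which lie on the other strand, and 5 of its 10 transcripts share bases with one of them. The library kit does not mark strand, so reads of the 2 strands cannot be told apart there. Ccdc22 itself was 24.4 to 79.1 CPM in Cat-Tg and 12.6 to 59.0 CPM in WT CD4 libraries. Counting Foxp3 on the other 5 transcripts alone left 896, 472 and 444 counts in Cat-Tg and 135, 250 and 55 counts in WT CD4 pre-tx libraries. In CD4 post-tx it left 560, 1080 and 530 counts in Cat-Tg and 174, 335 and 0 counts in WT libraries. The groups still did not overlap in counts, and the difference was 1.86 pre-tx (adjusted p = 0.277) and 2.57 post-tx (adjusted p = 0.171), neither called. The assignment of reads to transcripts was uneven between libraries, with 0.0 to 88.4% of Foxp3 counts on these 5 transcripts. Flicr, on the strand of Foxp3, shares 853 bases and had no transcript in the index. Shared bases were fewer for Ikzf2 (144 with Gm29114), Ikzf4 (37 with Gm26876) and Nrp1 (80 with Mir1903), and Lrrc32 and Gpr83 shared none.

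Per length, in TPM, the order of the 6 genes differed between groups. In Cat-Tg CD4 pre-tx cells Foxp3 led with 30.1 ± 2.6 TPM (SD, n = 3), followed by Nrp1 (10.3 ± 0.885), Gpr83 (8.82 ± 4.96), Lrrc32 (6.25 ± 2.52), Ikzf2 (5.8 ± 1.4) and Ikzf4 (2.43 ± 0.68). In WT CD4 post-tx cells Nrp1 led with 45.8 ± 6.89 TPM, and Foxp3 followed with 8.36 ± 4.98 TPM. In Cat-Tg CD4 post-tx cells Nrp1 (38.8 ± 12.3 TPM) and Foxp3 (29.0 ± 12.3 TPM) overlapped between libraries.

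CD8 cells are not the usual home of these genes, and there the pre-tx order was turned. Foxp3 was 0.869, 1.03 and 8.88 CPM in Cat-Tg and 25.9, 37.1 and 24.2 CPM in WT CD8 pre-tx libraries, and Nrp1 was 2.36, 4.29 and 1.2 CPM against 13.8, 12.2 and 20.1 CPM. In both, every library labelled WT was above every Cat-Tg library. Ikzf4 passed the filter on low values in CD4 but not in CD8 cells, which left 5 of the 6 genes for the CD8 tests. Nrp1 was lower in Cat-Tg (-2.44, SE 0.561, adjusted p = 0.0132, edgeR), 1 of 5 genes beside 4.5% of 15967 genes called higher and 4.48% called lower, and the call was lost without Cat-Tg replicate 1 (adjusted p = 0.0582) or replicate 3 (adjusted p = 0.0621). Foxp3 had -2.97 (SE 1.03, adjusted p = 0.0852) and was called by DESeq2 (-2.98, adjusted p = 0.0116) and without Cat-Tg replicate 3 (-4.9, adjusted p = 0.029). It was also called by limma-voom (adjusted p = 0.0294), with length-scaled TPM (adjusted p = 0.0207) and with only the 6 libraries compared (adjusted p = 0.0415). The same held with all 24 libraries (adjusted p = 0.0196), under T cell scaling (-5.3, adjusted p = 0.000936) and without the shared transcripts (adjusted p = 0.0137). Ikzf2 (-0.72, adjusted p = 0.574), Lrrc32 (-2.01, adjusted p = 0.279) and Gpr83 (-1.52, adjusted p = 0.26) were not called. Cd4 itself was 85.0 to 111 CPM in these WT CD8 pre-tx libraries and at most 3.62 CPM in the Cat-Tg ones. Summed B cell markers were 5280 to 6870 against 224 to 507 CPM, and T cell markers 2010 to 2130 against 7710 to 10400 CPM. The part of this cell content in the Foxp3 and Nrp1 values was not tested.

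After the transplant Foxp3 in CD8 cells was 27.9, 26.9 and 55.2 CPM in Cat-Tg and 1.49, 56.1 and 11.3 CPM in WT libraries, and Nrp1 was 138, 61.9 and 53.9 CPM against 37.9, 45.5 and 53.7 CPM. The WT libraries spanned the whole Foxp3 range. None of the 5 genes was called by edgeR, beside 1.08% of all genes higher and 0.564% lower, and 1 had an unadjusted p under 0.05. That gene was Gpr83, at 19, 11 and 62 counts in Cat-Tg and 2, 1 and 1 counts in WT libraries. Its ratio by counts was 12.2 (95% exact interval 4.62 to 45.9, counting error only), its fitted difference of 3.61 depends on the prior count (adjusted p = 0.0652), and DESeq2 called it (3.64, adjusted p = 0.0112). Foxp3 (0.85, adjusted p = 0.655), Nrp1 (1.07, SE 0.533, adjusted p = 0.288), Ikzf2 (0.16, adjusted p = 0.92) and Lrrc32 (0.19, adjusted p = 0.942) were not called.

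With time, Cat-Tg CD8 cells gained Nrp1 and Foxp3 RNA. Nrp1 rose by 4.96 (SE 0.625, 31.1-fold, adjusted p = 0.000162) and Foxp3 by 3.3 (SE 1.04, adjusted p = 0.0474), 2 of 5 genes beside 8.71% of all genes higher and 5.22% lower. The Foxp3 call was lost when any library but Cat-Tg pre-tx replicate 3 was left out (adjusted p = 0.0818 to 0.163). Ikzf2 (-0.99, adjusted p = 0.286), Lrrc32 (-1.7, adjusted p = 0.259) and Gpr83 (-2.24, adjusted p = 0.071) were not called. In WT CD8 cells Gpr83 and Lrrc32 fell, 2 of 5 genes beside 13.2% of all genes higher and 10.4% lower. In the same libraries summed B cell markers went from 5280 to 6870 CPM pre-tx to 59.2 to 140 CPM post-tx. T cell markers went from 2010 to 2130 CPM to 9900 to 20600 CPM, and the part of this change of cell content was not tested. Gpr83 was 15.1, 17.7 and 10.1 CPM pre-tx and 0.157, 0.0768 and 0.0467 CPM post-tx, a ratio by counts of 164 (95% exact interval 64 to 604, adjusted p = 0.000166). Lrrc32 was 13.8, 4.55 and 14.3 CPM pre-tx and 0.865, 0.307 and 1.12 CPM post-tx, a fall by 3.9 (SE 1.16, adjusted p = 0.0236), and the call was lost without WT pre-tx replicate 1 (adjusted p = 0.0569) or 3 (adjusted p = 0.0555) or without post-tx replicate 2 (adjusted p = 0.0584). Ikzf2 (-1.87, SE 0.671, adjusted p = 0.0552) and Nrp1 (1.45, SE 0.538, adjusted p = 0.0635) fell short of the threshold, each without overlap between the times, and both were called by DESeq2 (adjusted p = 0.0125 and 0.0168) and with all 24 libraries in the fit (adjusted p = 0.00886 and 0.0111). Nrp1 was -1.16 on the T cell marker scale, and Foxp3 was -0.53 (adjusted p = 0.744) under TMM scaling. The interaction in CD8 cells was positive for Nrp1 (3.51, SE 0.771, adjusted p = 0.0091) and Gpr83 (5.13, SE 1.23, adjusted p = 0.0148, but 0.0793 by limma-voom), 2 of 5 genes beside 5.92% of all genes higher and 4.78% lower. For Foxp3 it was 3.83 (SE 1.4, adjusted p = 0.0934), and it was called without Cat-Tg pre-tx replicate 3 (5.93, adjusted p = 0.019) or without WT post-tx replicate 2 (5.78, adjusted p = 0.0079). It was also called under 7 other settings, among them limma-voom (adjusted p = 0.014), DESeq2 (adjusted p = 0.0323), all 24 libraries in the fit (adjusted p = 0.0314) and without the shared transcripts (adjusted p = 0.011). Ikzf2 (0.88, adjusted p = 0.588) and Lrrc32 (2.2, adjusted p = 0.384) were not called.

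CD4 and CD8 cells of one group were compared in a fit of all 24 libraries, where 19086 genes passed the filter. In Cat-Tg pre-tx cells all 6 genes were higher in CD4 without overlap, and the share of all genes without overlap was not counted. Of the 6 genes 4 were called, beside 1.17% of all genes called higher and 0.309% called lower. The difference was 4.38 for Foxp3 (SE 0.908, 20.8-fold, adjusted p = 0.00822), 3.82 for Nrp1 (SE 0.5, adjusted p = 6.32e-05), 2.25 for Ikzf2 (SE 0.491, adjusted p = 0.013) and 2.59 for Gpr83 (SE 0.667, adjusted p = 0.0487). Lrrc32 was 3.15 (SE 1.04, adjusted p = 0.186) and Ikzf4 2.11 (SE 1.38, adjusted p = 0.742), not called. Of these calls, only that of Nrp1 was kept without each single library, and that of Foxp3 was lost without Cat-Tg CD8 replicate 1 (adjusted p = 0.0625) or 2 (adjusted p = 0.0503). The Ikzf2 call was lost without CD8 replicate 1 or 3 or CD4 replicate 2 (adjusted p = 0.0855 to 0.0888), and the Gpr83 call without any library but CD4 replicate 2 (adjusted p = 0.0641 to 0.254).

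In Cat-Tg post-tx cells Lrrc32 (4.01, SE 1.09, adjusted p = 0.0272) and Gpr83 (2.78, SE 0.681, adjusted p = 0.0132) were higher in CD4 than in CD8, 2 of 6 genes beside 4.03% of all genes higher and 1.97% lower. Both calls rested on single CD8 libraries: Lrrc32 lost its call without replicate 2 (adjusted p = 0.112) or 3 (adjusted p = 0.123) and with length-scaled TPM (adjusted p = 0.0893), and Gpr83 without replicate 1 (adjusted p = 0.0709) or 2 (adjusted p = 0.074). Foxp3 (0.55, adjusted p = 0.746), Nrp1 (0.37, adjusted p = 0.684), Ikzf2 (1.15, adjusted p = 0.168) and Ikzf4 (3.19, adjusted p = 0.211) were not called. Macrophage and monocyte markers moved with this contrast, at 2670 to 4230 CPM in the CD4 and 225 to 427 CPM in the CD8 libraries. The endothelial list summed to 59 to 79.3 against 3.83 to 8.51 CPM. Most of its mean sum of 67.4 CPM in CD4 was the single gene Stab2, at 61.1 CPM in CD4 and 2.59 CPM in CD8. The part of other cells in this contrast was not tested. In WT post-tx cells Ikzf2 (2.08, SE 0.492, adjusted p = 0.00579), Gpr83 (3.16, SE 0.843, adjusted p = 0.0136) and Nrp1 (1.41, SE 0.45, adjusted p = 0.0396) were higher in CD4, 3 of 6 genes beside 5.53% higher and 7.14% lower. The Ikzf2 call held without each single library. The Gpr83 call was lost without CD8 replicate 2 (adjusted p = 0.0533) or 3 (adjusted p = 0.0569) and by limma-voom (adjusted p = 0.206), and its ratio by counts was 9.57 (95% exact interval 3.63 to 35.8). The Nrp1 call was lost without any CD8 replicate or without CD4 replicate 3 (adjusted p = 0.0547 to 0.0767). Ikzf4 (1.81, adjusted p = 0.462) and Lrrc32 (2.5, adjusted p = 0.126) were not called. Foxp3 was -0.5 (adjusted p = 0.757) and turned to 1.37 (adjusted p = 0.307) without WT CD8 replicate 2. In the WT pre-tx libraries none of the 6 genes was called by edgeR, where 0.0157% of all genes were higher and 0.00524% lower. There 2 genes had an unadjusted p under 0.05, namely Ikzf2 (-1.53, adjusted p = 0.182) and Ikzf4 (5.06, adjusted p = 0.202, a fit that depends on the prior count), and limma-voom called 0 and DESeq2 1 of the 6. The other 4 lay at -0.75 (Foxp3), -0.88 (Nrp1), -0.02 (Lrrc32) and -0.54 (Gpr83). Ikzf4 was 0.0482, 3.57 and 2.09 CPM in CD4 and 5, 0 and 0 counts in CD8, a ratio by counts of 37 (95% exact interval 15.4 to 116).

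Ordered by mean level, Foxp3 ran from Cat-Tg CD4 pre-tx through Cat-Tg CD4 post-tx, Cat-Tg CD8 post-tx, WT CD8 pre-tx, WT CD8 post-tx, WT CD4 pre-tx and WT CD4 post-tx to Cat-Tg CD8 pre-tx. Neighbours in this order overlapped between libraries except the last pair. For Ikzf2 the first group was again Cat-Tg CD4 pre-tx, which cleared the next, WT CD4 post-tx. For Nrp1 the order began with WT CD4 post-tx, Cat-Tg CD4 post-tx and Cat-Tg CD8 post-tx, and ended with Cat-Tg CD8 pre-tx. Gpr83 ended with WT CD8 post-tx and Lrrc32 with both CD8 post-tx groups, which overlapped. Ikzf4 began with Cat-Tg CD4 post-tx and Cat-Tg CD4 pre-tx, which overlapped, and ended with WT CD8 pre-tx.

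Over the 24 libraries, which share groups and depth, the genes whose log2 CPM followed Foxp3 most closely among 19085 others were Mocs1 (Pearson r = 0.84), Atg9a (0.81), Gm11273 (0.77), Tspan17 (0.75), Tnfsf13 (0.73), Runx1 (0.72), Nxpe3, Ggt7, Fhod1 and Ralgds (0.71 each). Runx1 is a transcription factor that binds Foxp3. Of these 10, 2 were also among the 10 closest by Spearman's rho and 6 without the 6 WT pre-tx libraries. Nrp1 was closest to Il2ra (0.94), the high-affinity IL-2 receptor chain, and to Mdfic and Plscr1 (0.92 each). Ikzf2 was closest to Gpm6b (0.8), Ankrd12 (0.78) and Izumo1r (0.75), the last a folate receptor of regulatory T cells. Ikzf4 was closest to Angptl2 and Cd200r1 (0.74 each) and Mansc1 (0.72). Lrrc32 was closest to Sirpb1a (0.87), Wnt10a (0.84) and Timd4 (0.83), and Gpr83 to Tgfbr3 (0.91) and the immunoglobulin segments Igkv4-57-1 and Igkv4-55 (0.9 each). These neighbours depended on the libraries and on the measure. Without the WT pre-tx libraries 0 of 3 were kept for Ikzf2 and for Ikzf4 and 1 of 3 for Nrp1, Lrrc32 and Gpr83, and by Spearman's rho 0 of 3 were kept for Nrp1 and Gpr83 and 2 of 3 for Ikzf2, Ikzf4 and Lrrc32. Immunoglobulin genes are B cell genes, and B cell markers were high in the WT pre-tx libraries. Without these libraries r of Gpr83 with both immunoglobulin segments was still 0.9, at ranks 4 and 5. The part of B cell content in this likeness was not tested. Between members, r with Foxp3 was 0.26 for Gpr83, 0.3 for Ikzf4, 0.38 for Ikzf2, 0.47 for Lrrc32 and 0.51 for Nrp1. Among the others it was 0.67 for Lrrc32 and Gpr83, 0.6 for Ikzf2 and Lrrc32, 0.5 for Ikzf2 and Gpr83, 0.41 for Ikzf2 and Ikzf4, 0.4 for Ikzf4 and Lrrc32, 0.1 for Ikzf4 and Gpr83, and -0.36 for Nrp1 and Gpr83. Without the 6 WT pre-tx libraries r was 0.69 for Ikzf2 and Ikzf4, 0.68 for Ikzf4 and Lrrc32, 0.71 for Ikzf2 and Lrrc32, 0.64 for Ikzf2 and Gpr83, 0.5 for Ikzf4 and Gpr83 and -0.22 for Nrp1 and Gpr83.

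Other genes of regulatory T cells were read from 5 lists: 7 genes of the IL-2 receptor and STAT5 axis, 22 transcription factors, 14 other surface receptors, 9 suppressive mediators (8 tested) and 12 partners of Nrp1 and GARP. In CD4 pre-tx 13.3% of all genes were called higher in Cat-Tg and 7.16% lower. Of the 14 surface receptors 9 were higher and 1 was lower in Cat-Tg (median 1.39, against 0.03 over all genes). Ctla4, the inhibitory receptor on which suppression depends, had 69.6 CPM in the Cat-Tg cells against 4.37 CPM (4.12, SE 0.394, adjusted p = 1.1e-05). Icos, a costimulatory receptor, was higher by 3.25 (SE 0.499, adjusted p = 0.000369), as was Klrg1 by 1.35 (adjusted p = 0.02), and Cd81 fell by 0.84 (adjusted p = 0.0151). On the IL-2 axis 2 of 7 were higher, Il2ra by 2.66 (43.4 against 7.44 CPM, SE 0.307, adjusted p = 4.82e-05) and Jak1 by 1.16 (adjusted p = 0.0246). Of the mediators 2 were higher and 2 lower, with Nt5e (CD73, which makes adenosine) at 3.45 (adjusted p = 0.000112), Il10 at 3.01 (adjusted p = 0.0249), Ebi3 at -1.69 (adjusted p = 0.0132) and Tgfb1 at -1.09 (adjusted p = 0.0335). Of the 22 transcription factors 4 were higher and 2 lower, near the shares of all genes. Among them were Batf (2.01, adjusted p = 0.000173), Ezh2 (1.8, adjusted p = 0.00902), Irf4 (-2.07, adjusted p = 0.00103) and Runx3 (-0.95, adjusted p = 0.0126). Of the 12 partners 1 was lower, Nrros (-1.43, adjusted p = 0.000897), which holds latent TGF-β in myeloid cells. T cell markers moved in the same direction, 11 of 12 higher, and B cell markers in the other, 12 of 12 lower, as did 3 of 10 macrophage and monocyte, 3 of 10 dendritic cell and 4 of 7 red cell markers, and their part in these counts was not tested.

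The same lists were read in CD4 post-tx, where 3.69% of all genes were called higher and 6.46% lower. No gene of the IL-2 axis was called (median -0.11, against -0.19 over all genes). The genes of this axis and of the surface receptors named above as higher pre-tx were lower in Cat-Tg here, none of them called by edgeR. Ctla4 was 37.2 against 75.1 CPM (-1.04, adjusted p = 0.068) and Icos 137 against 363 CPM (-1.44, adjusted p = 0.0592). Il2ra was 68.9 against 101 CPM (-0.58, adjusted p = 0.23), and these 3 did not overlap. Klrg1 was -0.26 and Jak1 -0.21. Of the surface receptors 1 was higher, the tetraspanin Cd81 (1.81, adjusted p = 0.000363), and 3 were lower, the costimulatory receptors Tnfrsf9 (-1.66, adjusted p = 0.00437) and Tnfrsf4 (-1.15, adjusted p = 0.0151) and the inhibitory receptor Tigit (-1.38, adjusted p = 0.00853). Of the mediators 1 was lower, Lag3 (-1.05, adjusted p = 0.0372), an inhibitory receptor that binds MHC class II. Of the transcription factors 2 were lower, near the share of all genes, namely Nr4a2 (-2.92, adjusted p = 0.0406) and Foxo1 (-1.01, adjusted p = 0.0337). Of the partners 1 was higher, Nrros (0.83, adjusted p = 0.043). The macrophage and monocyte markers and the red cell markers were higher in Cat-Tg here, 9 of 10 and 7 of 7, and their part in these calls was not tested.

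**Figure D5:**
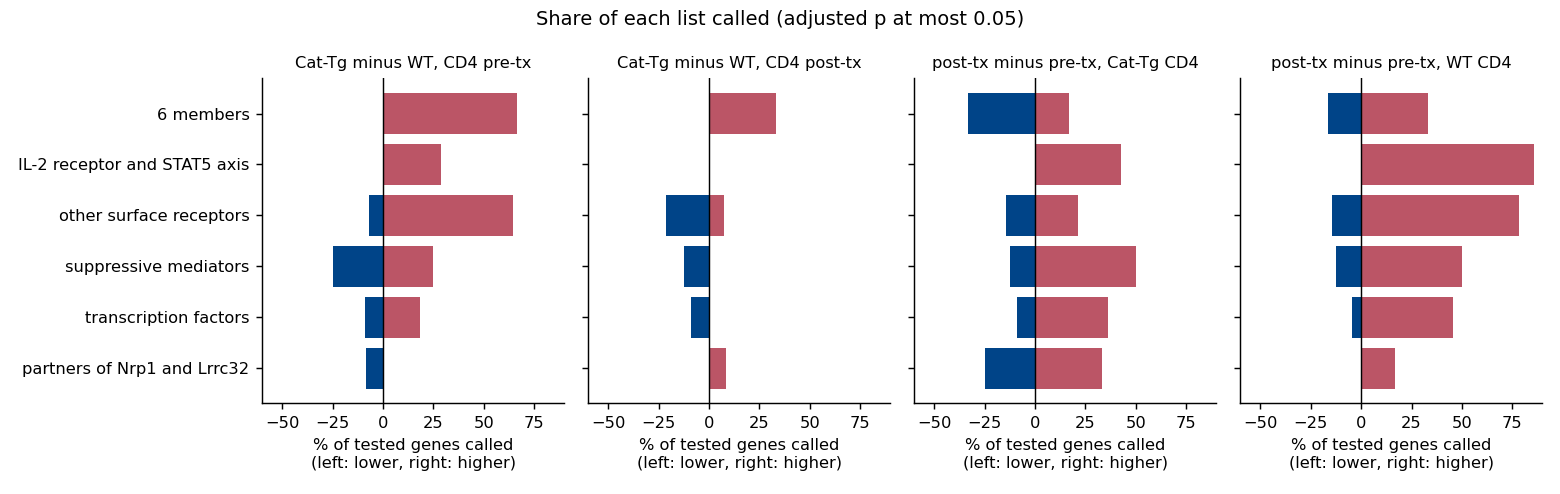
Share of the tested genes of the 6-gene list and of each other list called lower (blue, left of 0) or higher (red, right of 0), in percent, in 4 CD4 comparisons. The surface receptors show 9 higher and 1 lower of 14 for Cat-Tg minus WT pre-tx, beside 13.3% and 7.16% of all genes. Post-tx they show 1 higher and 3 lower, beside 3.69% and 6.46% of all genes.

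From pre-tx to post-tx, counts are given for 4 of these lists, without the partners of Nrp1 and GARP. In these 4 more genes rose than fell in both genotypes. Of all genes, 14.7% were higher and 9.6% lower in WT and 16.2% and 28.9% in Cat-Tg CD4 cells. In WT CD4 cells 6 of 7 IL-2 axis genes, 10 of 22 transcription factors, 11 of 14 surface receptors and 4 of 8 mediators rose, and 0, 1, 2 and 1 fell. In Cat-Tg CD4 cells 3, 8, 3 and 4 rose and 0, 2, 2 and 1 fell, and the surface receptors that rose (3 of 14) were near the share of all genes. The cell content moved as well: in WT, T cell markers went from 2310 to 3640 CPM pre-tx to 6000 to 9060 CPM post-tx and B cell markers from 5950 to 8890 CPM to 41.8 to 70.9 CPM, and in Cat-Tg, macrophage and monocyte markers went from 892 to 1350 CPM to 2670 to 4230 CPM. Their part in these counts was not tested. Il2ra rose by 3.66 (adjusted p = 1.34e-06) in WT cells, and its interaction was -3.24 (adjusted p = 0.000128). The other genes named by the rule in WT cells rose for Il2rb (2.39), Jak1 (1.11), Gata3 (3.75), Batf (3.2), Icos (4.76), Tigit (4.66), Il10 (3.74), Lag3 (2.89), Furin (3.19), the protease that cleaves TGF-β, and Sema4a (0.81), and fell for Bach2 (-1.78), Itgae (-2.5), Cd81 (-2.16) and Il12a (-4.38). Cat-Tg cells shared the rise of Il2rb (1.87), Gata3 (3.35), Tigit (1.53), Lag3 (1.08) and Furin (4.17) and the fall of Bach2 (-1.61). In Cat-Tg cells Prdm1 (2.76), Il1rl1 (2.92), Ebi3 (2.66) and Entpd1 (2.58) also rose, and Izumo1r (-2.6), Ctla4 (-1.15), Foxo1 (-1.14), Nt5e (-1.96), Itgb8 (-2.38) and Plxna4 (-2.2) fell. The interaction was called lower for 9 of 14 surface receptors and higher for 2, beside 14.1% of all genes lower and 7.25% higher. It was -5.16 for Ctla4 (adjusted p = 1.33e-05), -4.7 for Icos (adjusted p = 0.000317), 2.65 for Cd81 (adjusted p = 8.33e-05) and 3.12 for Itgae (adjusted p = 0.0172). Of the mediators 3 were higher and 3 lower, with Ebi3 at 2.28 (adjusted p = 0.0174) and Il10 at -3.92 (adjusted p = 0.0295). Of the 22 transcription factors 3 were lower, near the share of all genes, namely Ezh2 (-2.78), Batf (-2.75) and Satb1 (-1.54). T cell markers moved with the interaction, 9 of 12 lower, as did B cell markers and myeloid markers, with 8 of 12 and 8 of 10 higher, and their part was not tested.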

How the data were processed

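Bulk RNA-seq was read from 24 libraries of sorted splenic T cells, 8 groups of 3, made with a SMART-Seq HT and Nextera XT protocol that does not mark strand. The authors quantified reads with kallisto 0.46.2 and deposited, for each of 117497 transcripts, estimated counts and TPM. The submitters' processing notes name the build mm9, and the transcript release is not given in the sources used here. Of the transcripts, 116374 matched GENCODE M21 (GRCm38) by identifier, with 99.57 to 99.75% of the counts, and 1123 did not and were left out.

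Estimated counts were summed to 35855 genes and rounded. Genes over 1 CPM in at least 3 libraries were tested with edgeR 4.0.16 in R 4.3.3 (TMM scaling, robust quasi-likelihood test, Benjamini-Hochberg adjustment, called at an adjusted p of at most 0.05). The 12 libraries of a cell type shared a fit (17237 genes in CD4, 15967 in CD8), and CD4 was set against CD8 in a fit of all 24 (19086 genes). The standard error is the log2 difference divided by the square root of F. Ratios were compared by two-sided exact permutation tests. Statements that groups did not overlap describe the named genes, and the share of all genes without overlap was not counted. TPM was used between genes. The edgeR fit was tried on simulated counts for a single contrast, Cat-Tg minus WT in CD4 post-tx, with the same dispersion for all genes. The other steps were not tried on simulated data. Total counts were 11135713 to 50519825, and 3 counts were worth 0.0594 to 0.269 CPM. Intervals on counts cover counting error only.

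The 6 genes and the lists of other genes were chosen with earlier results of these data known. Named in the text are the 6 genes in every comparison, the 2 highest and the 2 lowest called genes of each list in each CD4 comparison, and the genes most like each member by Pearson correlation (10 for Foxp3, 3 for the others). Separate mice are described for pre-tx and separate recipients for post-tx samples. The labels do not say which library came from which mouse, so p-values measure the spread between libraries. Deviations of libraries with the same replicate number showed no clear correlation, which does not settle whether they share a mouse. Alternatives were DESeq2 1.42.0, limma-voom (limma 3.58.1), other size factors and filters, length-scaled TPM, a replicate block, scaling to T cell markers, other sets of libraries in the fit and leaving out each library. Fits without the WT pre-tx libraries, Foxp3 without its transcripts shared with the other strand, and Cd3 in place of Cd4 were chosen after seeing the data.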

Additional observations from a re-analysis of the deposited data

Results flagged for a closer look

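In 2 of the 6 genes the Cat-Tg minus WT difference in CD4 cells changed between pre-tx and post-tx by the interaction test, Ikzf2 by -4.01 and Nrp1 by -2.5 on the log2 scale. In CD8 cells it changed for Nrp1 by 3.51 and for Gpr83 by 5.13, the latter fitted on WT post-tx libraries of 2, 1 and 1 counts. All 4 use the libraries labelled WT pre-tx.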

How the results depend on the processing

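Of 955 values of single members under the other settings, 856 kept their direction and their side of the threshold, 36 lost the call, 44 gained it and 19 changed sign. Members called in CD4 pre-tx numbered 4, but 1 under scaling to T cell markers and 2 with all 24 libraries in the fit, and in CD4 post-tx 2, but 1 at an absolute log2 difference of at least 2 and 1 with all 24. In CD8 pre-tx 1 was called, but 2 by limma-voom, DESeq2, without a filter, with length-scaled TPM and with only the 6 libraries compared, 3 with all 24 and 5 under T cell scaling. In CD8 post-tx 0 were called, but 1 by DESeq2 and with all 24. In Cat-Tg CD8 over time 2 became 1 with DESeq2 size factors, with filterByExpr and without the 6 WT pre-tx libraries, and in WT CD8 2 became 4 under T cell scaling and with all 24. The CD8 interaction went from 2 to 5 under T cell scaling. For CD4 minus CD8, 4 became 2 (Cat-Tg pre-tx) and 2 became 1 (Cat-Tg post-tx) with length-scaled TPM, 0 became 1 by DESeq2 (WT pre-tx) and 3 became 1 with only the 6 libraries compared (WT post-tx). Over all genes, 3518 were called in CD4 pre-tx, from 1320 at an absolute log2 difference of at least 2 to 8077 under T cell scaling, and 1749 in CD4 post-tx, from 510 with all 24 libraries to 2674 by DESeq2. Ratios without overlap pre-tx numbered 0 per Cd4, 1 per Cd3 and 5 with no denominator, and of the 10 genes most like Foxp3, 2 were kept by Spearman and 6 without the WT pre-tx libraries.

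Signs turned under T cell scaling for Lrrc32 in CD4 pre-tx (-0.3), Nrp1 in CD4 post-tx (0.22) and over time in WT CD8 (-1.16), Ikzf4 over time in WT CD4 (-0.28), the CD4 interactions of Foxp3 (1.26) and Ikzf4 (1.0) and Foxp3 in CD4 minus CD8, WT post-tx (0.86). They turned by limma-voom for Ikzf4 over time in Cat-Tg CD4 (-0.57), Lrrc32 in the CD4 interaction (-0.03) and in CD8 post-tx (-0.25), and Foxp3 in CD4 minus CD8, WT post-tx (0.62). Foxp3 without the shared transcripts turned over time in Cat-Tg CD4 (0.02) and in the CD4 interaction (0.7). Lrrc32 in CD4 minus CD8, WT pre-tx, turned with DESeq2 and with its size factors (0.17 each), filterByExpr (0.02), length-scaled TPM (0.03) and only the 6 libraries compared (0.07). Leaving out single libraries turned signs as well, within ranges of -0.55 to 0.66 for Ikzf4 over time in Cat-Tg CD4, -0.48 to 0.08 for Foxp3 over time in WT CD4, -0.94 to 0.13 for Foxp3, -1.57 to 0.15 for Ikzf4 and -0.25 to 1.47 for Lrrc32 in the CD4 interaction, -1.25 to 0.74 for Lrrc32 in CD8 post-tx, -3.14 to 0.05 for Lrrc32 over time in Cat-Tg CD8, -0.44 to 0.52 for Lrrc32 in CD4 minus CD8, WT pre-tx, and -1.02 to 1.37 for Foxp3 in CD4 minus CD8, WT post-tx. None of these members was called there in the main analysis, and the cause was not tested. With the replicate block, paired by number, the calls in the CD8 interaction rose from 2 to 3 (Foxp3, 4.74), CD4 minus CD8 went from 4 to 3 in Cat-Tg pre-tx and from 3 to 2 in WT post-tx, and Foxp3 in the latter was 0.45. Deviations of same-numbered libraries from their group means correlated at -0.272 to 0.183 over all comparisons, and at -0.272 to 0.159 between CD4 and CD8. With 3 libraries a group this cannot show whether a CD4 and a CD8 library of one number came from one mouse.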
